A study of Mus musculus with 6 samples.

Results

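Open chromatin between genes was compared in quadriceps femoris, a thigh muscle that extends the knee, between mice without Prr14 (Prr14-KO, here KO) and wild-type mice (Prr14-WT, here WT). The intergenic peaks described here are those that the deposited annotation calls Intergenic, that lie at most 50000 bases from the start site of their annotated gene, that are under 2500 bases wide and that lie on chromosomes 1 to 19. They number 12531 of the 75134 peaks of the series, 8463 of them (67.5%) upstream and 4068 downstream of the annotated gene. Their distances to the start site ran from 3149 to 49996 bases, and they were annotated to 6315 genes.

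The assay was ATAC-seq, where the Tn5 transposase inserts sequencing adapters into open chromatin of nuclei, here from frozen muscle. There were 3 libraries per group, with replicate numbers 3, 4 and 8 in WT and 4, 5 and 7 in KO. The labels name no strain, age, sex, deleted part of Prr14 or tissue restriction of the deletion. Whether the 3 libraries of a group are 3 animals is also not given, so the p-values rest on the spread among these samples, which may be technical. The tissue is bulk muscle: fewer nuclei of one type and less open chromatin per nucleus cannot be told apart in any of the values that follow. Of 10 defining skeletal muscle genes, 10 had a tested promoter peak.

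PRR14 binds the nuclear lamina and holds heterochromatin at the edge of the nucleus. Open chromatin away from promoters is known to hold enhancers, short stretches where transcription factors bind and from which they act on promoters that can lie many kilobases away. In muscle, factors of the MyoD family, which bind E-boxes, and factors of the MEF2 family are known to bind such sites at fibre-type and sarcomere genes. The gene given to an intergenic peak is the nearest one in the deposited annotation, and nearness does not show which promoter a site acts on.

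Peak sequences are shown where a RefSeq start window (GRCm38.p6) lay wholly inside a called intergenic peak, since these are the regions whose letters the reference tables hold. Of the 12531 intergenic peaks, 331 held a RefSeq start, although the deposited class was Intergenic. The 5 windows below include those of the largest loss and the largest gain among such peaks. The others are of a non-coding gene of the myosin heavy chain cluster, of the slow myosin light chain gene Myl2 and of the called peak matching the MEF2 letters. Each is written 5′ to 3′ on the strand of its gene. Capitals mark a match to one of the motifs searched on both strands: MEF2 (CTA, any 4 bases, TAG), the E-box CAGCTG, AP-1 (TGANTCA) and MEF3 (TCAGGTTTC). These MEF2 and AP-1 letters are looser than the usual sites, which hold A or T at the 4 middle bases and C or G at the middle base. Of the marked stretches, CTAATTTTAG meets the narrower form, and CTAGATCTAG and TGAATCA do not.
2310065F04Rik, listed in RefSeq with the synonym linc-Myh, chr11:67120031-67120330, minus strand, in a peak that fell in KO: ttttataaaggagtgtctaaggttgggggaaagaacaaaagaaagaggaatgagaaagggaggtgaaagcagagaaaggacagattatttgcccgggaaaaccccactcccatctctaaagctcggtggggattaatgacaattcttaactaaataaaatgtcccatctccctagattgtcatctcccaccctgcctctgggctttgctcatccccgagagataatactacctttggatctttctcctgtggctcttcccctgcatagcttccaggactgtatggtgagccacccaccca
Gm36665, chr5:32120835-32121134, plus strand, in a peak that fell in KO: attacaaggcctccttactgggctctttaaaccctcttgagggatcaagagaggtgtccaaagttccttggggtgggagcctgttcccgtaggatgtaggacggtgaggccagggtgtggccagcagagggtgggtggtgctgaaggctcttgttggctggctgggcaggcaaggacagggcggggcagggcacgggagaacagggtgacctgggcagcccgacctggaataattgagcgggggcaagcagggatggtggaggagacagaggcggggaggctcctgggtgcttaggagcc
Gm4544, chr15:102657222-102657521, plus strand, in a peak that fell in KO, with 2 MEF2 matches: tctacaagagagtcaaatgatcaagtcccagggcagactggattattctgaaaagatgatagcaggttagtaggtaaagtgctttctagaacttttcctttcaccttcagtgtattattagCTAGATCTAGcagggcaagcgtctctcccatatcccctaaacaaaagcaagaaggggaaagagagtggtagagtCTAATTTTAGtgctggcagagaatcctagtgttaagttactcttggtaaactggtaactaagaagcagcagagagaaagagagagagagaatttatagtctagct
Gm28867, chr1:118359072-118359371, plus strand, in a peak that rose in KO, with an AP-1 match: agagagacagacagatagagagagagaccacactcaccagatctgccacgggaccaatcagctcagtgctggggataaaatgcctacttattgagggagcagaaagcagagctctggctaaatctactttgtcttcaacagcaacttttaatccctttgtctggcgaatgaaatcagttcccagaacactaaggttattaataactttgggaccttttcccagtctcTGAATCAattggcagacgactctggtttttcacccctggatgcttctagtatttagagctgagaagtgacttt
Myl2, chr5:122092939-122093188, plus strand, the 250 bases before an upstream start of the gene, in a peak that rose in KO, with an E-box match: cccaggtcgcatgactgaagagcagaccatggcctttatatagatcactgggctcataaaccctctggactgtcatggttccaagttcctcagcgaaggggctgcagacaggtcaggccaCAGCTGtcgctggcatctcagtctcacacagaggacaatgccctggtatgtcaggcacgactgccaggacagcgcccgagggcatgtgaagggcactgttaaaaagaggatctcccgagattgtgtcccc

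Among 31396 RefSeq start windows of the same kind, 3.73% held the MEF2 letters, 16.3% the E-box, 7.84% AP-1 and 0.427% MEF3. Among the 256 windows that lay wholly inside an intergenic peak the shares were 2.34%, 21.5%, 8.59% and 0.391%. Of 13 windows in peaks that fell, 1 held MEF2, 4 the E-box and 0 AP-1, and of 10 windows in peaks that rose the counts were 0, 1 and 1. The MEF2 and AP-1 shares rest on the looser letters. A match describes letters only and is no evidence of a bound factor.

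Counts per peak were tested on the whole table with edgeR's quasi-likelihood test (TMM scaling), and a peak is called at a Benjamini-Hochberg adjusted p below 0.05. Levels are given as TMM-scaled counts per 1000000 counts (CPM), and changes as log2 fold changes of KO over WT with their standard error (SE). Per library, 7608514 to 12061822 counts fell in peaks. The intergenic peaks took 10.6% to 11.1% of them, with a median of 41 to 61 counts per peak and library, and 12335 of the 12531 passed the filter on low counts.

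Gains and losses in KO were nearly equal in number among intergenic peaks. Of the 12335 tested, 446 (3.62%) rose, 471 (3.82%) fell and 917 (7.43%) were called in all, at 737 genes. Over all 73896 tested peaks of the series 2.77% rose, 4.23% fell and 7.01% were called. The share that rose was above that of all peaks in 14 of 14 fits, the deposited table included. The share that fell was below that of all peaks in 12 of 14: with the authors' library factors 1.06% of intergenic and 1.02% of all peaks fell, and 0.946% and 0.872% were lower by the authors' deposited table. The libraries of the groups did not overlap for 867 of the 917 called peaks and for 2573 of all tested intergenic peaks (20.9%), where 20.3% of all peaks showed this.

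Single libraries stood apart in the calls. WT replicate 4 was the highest of the 3 WT libraries in 408 of the 471 peaks that fell (86.6%), against 36.3% of the peaks not called. KO replicate 7 was the lowest KO library in 308 of the 446 peaks that rose (69.1%), against 36.2% of those not called. With WT replicate 4 left out, 145 upstream and 80 downstream peaks fell. Without KO replicate 5, 149 and 74 fell and 167 and 54 rose. Without KO replicate 4, 185 upstream and 73 downstream peaks rose, and without WT replicate 3, 198 and 71 rose. Without KO replicate 7, 99 downstream peaks fell. Calls dropped over all peaks of the series too. There 3128 peaks fell with all libraries, 1409 without WT replicate 4 and 1511 without KO replicate 5. Gains over all peaks were 2049 with all libraries and 959 without KO replicate 5. Each such fit also has fewer libraries to estimate the spread from.

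Upstream of genes, gains were more frequent than downstream, while losses were about equally frequent on both sides. Of 8339 tested upstream peaks 329 (3.95%) rose and 319 (3.83%) fell, with a median log2 fold change of -0.03. Of 3996 tested downstream peaks 117 (2.93%) rose and 152 (3.80%) fell, with a median of -0.02, beside -0.01 over all peaks. Gains made up 50.8% of the calls upstream, 43.5% downstream and 39.6% over all peaks. In 14 of 14 fits, the deposited table included, the percentage that rose was higher upstream than downstream, and in 7 of 14 the percentage that fell was. At matched signal, upstream exceeded downstream in the percentage that rose in each of 4 bins: 0.268% against 0 below 2 CPM, 1.77% against 0.586% from 2 to 4 CPM, 4.62% against 2.97% from 4 to 8 CPM, and 6.55% against 5.55% above 8 CPM. The difference between the sides was not tested, since peaks are not replicates.

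Scaled by the authors' library factors, the median of all peaks moved from -0.01 to 0.19, gains made up 74.3% of the calls upstream and 70.1% downstream, and 96 upstream and 35 downstream peaks fell. By the authors' deposited table, 268 upstream peaks were higher and 77 lower, and 95 downstream peaks were higher and 27 lower. Of all peaks, 2.44% were higher and 0.872% lower among those with an adjusted p in the authors' deposited table.

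Summed over all intergenic peaks, the balance between the sides did not differ between the groups beyond the spread of the libraries. The log2 ratio of upstream to downstream signal was 0.898, 0.902 and 0.874 for the WT libraries and 0.880, 0.903 and 0.914 for the KO libraries, in the order 3, 4, 8 and 4, 5, 7. The 2 groups overlap, and their mean difference of 0.00740 was smaller than the spread of 0.0161 between libraries within groups.

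Gains were more frequent within 20 kb of start sites and losses more frequent beyond 20 kb. Upstream, the percentage that rose was 5.69% at 3 to 5 kb, 4.09% at 5 to 10 kb, 4.38% at 10 to 20 kb, 3.51% at 20 to 30 kb, 3.36% at 30 to 40 kb and 3.02% at 40 to 50 kb. The percentage that fell stayed between 3.19% and 4.01% up to 40 kb and was 6.52% at 40 to 50 kb. Divided at 20 kb, 4.39% of the nearer and 3.35% of the farther upstream peaks rose, and 3.36% and 4.45% fell. Downstream, 3.14% of the nearer and 2.75% of the farther peaks rose, and 3.31% and 4.21% fell, without an even course over the bins: 0 of 107 peaks rose at 3 to 5 kb, 1.89% at 20 to 30 kb and 3.92% at 30 to 40 kb. On both sides the nearer peaks had the higher percentage of gains and the farther peaks the higher percentage of losses in 14 of 14 fits. Signal was not matched between distances. Upstream, the median signal was 6.85 CPM at 3 to 5 kb and 4.87 CPM at 40 to 50 kb. Divided at 20 kb it was 5.31 and 5.09 CPM upstream, and 5.61 and 5.48 CPM downstream. These trends are descriptions over peaks and were not tested.

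**Figure D1:**
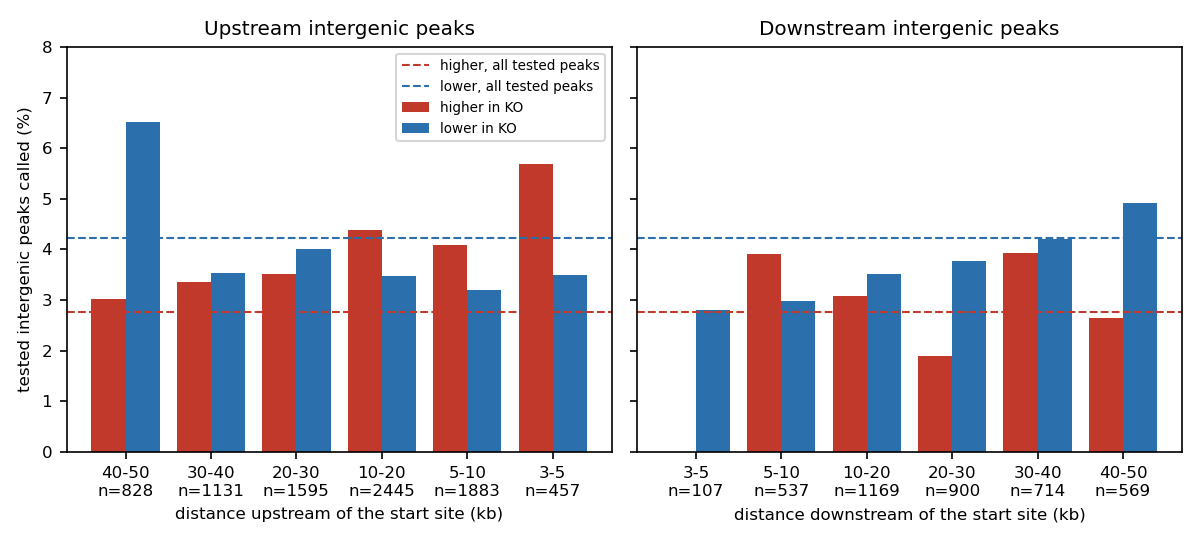
Percentage of tested intergenic peaks called higher (red) or lower (blue) in KO, by distance in kb from the start site of the annotated gene, upstream (left) and downstream (right), with n the tested peaks per bin. Dashed lines give the percentages over all tested peaks, 2.77% higher and 4.23% lower, and the red bars upstream go from 5.69% nearest the start site to 3.02% farthest from it.

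Just inside the distance limit, at 45 to 50 kb, 19 of 643 peaks rose (2.95%) and 35 fell (5.44%, median -0.04). Just outside, at 50 to 55 kb, 20 of 619 rose (3.23%) and 29 fell (4.68%, median -0.06). Among peaks of 2000 to 2500 bases 15 of 307 rose (4.89%) and 33 fell (10.7%), at a median signal of 26.6 CPM. Among those of 2500 to 3000 bases, outside the limit, 5 of 113 rose (4.42%) and 14 fell (12.4%), at 40.5 CPM. Over all tested peaks 2.77% rose and 4.23% fell, at a median signal of 6.24 CPM, and calls are more frequent at high signal.

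The peaks with the smallest adjusted p on each side and in each direction, 1 per gene, are described next. They were chosen among peaks whose libraries did not overlap between the groups, so their separation is part of the choice. All 20 kept their call and direction under 12 of 12 alternative fits.

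Of the upstream peaks that rose, the smallest adjusted p was at Clmn, which encodes calmin, a membrane protein with actin-binding calponin domains. The peak lies 47954 bases upstream (chr12:104912440-104913620) and had 5.76, 5.06 and 8.03 CPM in the WT libraries and 33.4, 30.3 and 21.2 CPM in the KO libraries, here and below in the order 3, 4, 8 and 4, 5, 7. Each KO library was above each WT library, by 4.55-fold on average (log2 fold change 2.19, SE 0.22, adjusted p = 2.21e-19). The other 2 tested intergenic peaks of Clmn rose too, by 1.502 at 39125 bases (SE 0.25, adjusted p = 3.90e-07) and by 0.90 at 34736 bases upstream (SE 0.27, adjusted p = 0.0201). Clmn as a gene with 3 of 3 peaks higher was chosen after its values were seen, and 2 of the 3 passed without KO replicate 4, KO replicate 5, WT replicate 4 or WT replicate 8.

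Tns3 encodes tensin 3, an adaptor of integrin adhesions. Its peak 27940 bases upstream (chr11:8691538-8693412) had 8.95, 8.37 and 12.2 CPM in WT and 34.6, 34.7 and 30.0 CPM in KO (log2 fold change 1.76, SE 0.21, adjusted p = 3.85e-14). The KO libraries lay within a narrow range, well above WT. At Rhoh, a GTPase gene of blood cells, a peak 22978 bases upstream (chr5:65837743-65838727) rose from 4.01, 2.39 and 6.19 to 19.2, 15.5 and 10.3 CPM (1.87, SE 0.25, adjusted p = 7.04e-11). That peak overlaps the RefSeq gene Gm3521, and KO replicate 7 was the lowest KO library there. At Sap18b, a copy of the gene of a histone deacetylase complex subunit, a peak 7217 bases upstream (chr8:95817631-95818627) rose from 4.42, 6.35 and 5.53 to 21.9, 17.6 and 15.0 CPM (1.73, SE 0.23, adjusted p = 1.04e-10). At Sbk3, a kinase gene, a peak 4757 bases upstream (chr7:4975414-4976435) rose from 4.42, 7.09 and 6.19 to 18.9, 19.7 and 18.3 CPM (1.68, SE 0.23, adjusted p = 1.85e-10). In RefSeq the Sbk3 peak lies inside the span of Sbk3 itself, so it is intergenic only in the deposited annotation.

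Upstream losses included genes of the basement membrane, glycogen and the contractile apparatus. Lama2 encodes the laminin chain of the muscle basement membrane whose loss causes a congenital muscular dystrophy. Its peak 36956 bases upstream (chr10:27652737-27654861) had 26.8, 37.1 and 28.3 CPM in WT and 7.21, 7.15 and 11.4 CPM in KO (log2 fold change -1.84, SE 0.21, adjusted p = 4.10e-15). Mylk4 is a member of the myosin light chain kinase family. Its peak 5802 bases upstream (chr13:32787099-32787937), inside the RefSeq span of the gene, had 13.8, 17.9 and 10.7 CPM in WT and 3.66, 3.04 and 3.48 CPM in KO (-2.06, SE 0.26, adjusted p = 1.46e-12). Ppp1r3c encodes a subunit that brings protein phosphatase 1 to glycogen and promotes glycogen synthesis. Its peak 35353 bases upstream (chr19:36771809-36772203) had 14.4, 15.0 and 8.42 CPM in WT and 2.82, 3.29 and 2.65 CPM in KO (-2.11, SE 0.27, adjusted p = 3.82e-12). In these peaks KO libraries were 3.57 to 4.32 times lower on average, and the KO values at Mylk4 and Ppp1r3c lay close together.

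Trub1 encodes a pseudouridine synthase that modifies tRNA. Its peak 14432 bases upstream (chr19:57437262-57439685) had 35.3, 47.6 and 22.2 CPM in WT and 10.04, 5.26 and 9.34 CPM in KO (log2 fold change -2.11, SE 0.21, adjusted p = 3.32e-20). Pdia6 encodes a protein disulfide isomerase of the endoplasmic reticulum. Its peak 27337 bases upstream (chr12:17238806-17239610) had 28.3, 29.7 and 22.1 CPM in WT and 5.12, 4.77 and 7.05 CPM in KO (-2.24, SE 0.22, adjusted p = 3.40e-20). WT replicate 8 was the lowest WT library at both and still lay above every KO library.

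Among the named peaks, downstream gains were 2.71-fold to 3.77-fold, and upstream gains 3.21-fold to 4.55-fold. Tlnrd1 encodes a talin rod domain protein that bundles actin. Its peak 20634 bases downstream of the start (chr7:83863128-83864214) rose from 4.22, 4.23 and 2.37 to 13.0, 15.8 and 12.8 CPM (log2 fold change 1.92, SE 0.26, adjusted p = 7.09e-11). Krt18 encodes a keratin of simple epithelia. Its peak 6692 bases downstream (chr15:102034478-102035265) rose from 3.40, 3.31 and 2.76 to 12.9, 11.9 and 7.32 CPM (1.75, SE 0.27, adjusted p = 5.64e-08). At 2010315B03Rik a peak 38239 bases downstream (chr9:124273058-124274261) rose from 7.20, 5.34 and 4.61 to 17.6, 14.2 and 19.5 CPM (1.57, SE 0.23, adjusted p = 7.28e-09). Pfkfb3 makes fructose 2,6-bisphosphate, an activator of glycolysis. Its peak 31672 bases downstream (chr2:11469117-11470938) rose from 7.92, 8.10 and 7.77 to 14.7, 34.6 and 15.7 CPM (1.45, SE 0.22, adjusted p = 9.40e-09), with KO replicate 5 more than double the other KO libraries. At Cdk5rap3, which encodes a regulator of protein UFMylation, a peak 19238 bases downstream (chr11:96896250-96897487) rose from 5.35, 8.10 and 7.37 to 15.996, 20.1 and 20.4 CPM (1.44, SE 0.23, adjusted p = 5.02e-08).

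Among the named downstream losses was one at a thin filament gene. Lmod2 encodes leiomodin 2, which nucleates actin and sets thin filament length in striated muscle. Its peak 14907 bases downstream (chr6:24611743-24613594) had 27.0, 42.3 and 29.5 CPM in WT and 10.4, 8.96 and 9.98 CPM in KO (log2 fold change -1.76, SE 0.21, adjusted p = 2.53e-14). Tbl1xr1 encodes a subunit of the NCoR and SMRT corepressor complexes. Its peak 26843 bases downstream (chr3:22229705-22230365) fell from 11.1, 21.3 and 9.48 to 2.40, 3.62 and 4.49 CPM (-1.99, SE 0.26, adjusted p = 6.89e-12). At Aldh8a1, an aldehyde dehydrogenase gene, a peak 28677 bases downstream (chr10:21404970-21406965) fell from 28.0, 51.9 and 33.6 to 9.72, 8.30 and 14.6 CPM (-1.80, SE 0.20, adjusted p = 1.21e-15). At the predicted genes Gm9949 (chr18:62191736-62193230, 12357 bases downstream) and Gm33543 (chr10:95797747-95798257, 44894 bases downstream) the log2 fold changes were -2.03 (SE 0.22, adjusted p = 3.78e-17) and -1.98 (SE 0.24, adjusted p = 3.35e-13). In each of these 5 peaks WT replicate 4 was the highest library. The Gm9949 peak overlaps the RefSeq spans of Gm9949 itself and of Gm36124. The peaks named above at Lama2, Sap18b, Tlnrd1, 2010315B03Rik and Cdk5rap3 also overlap a RefSeq gene span, that of another gene.

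**Figure D2:**
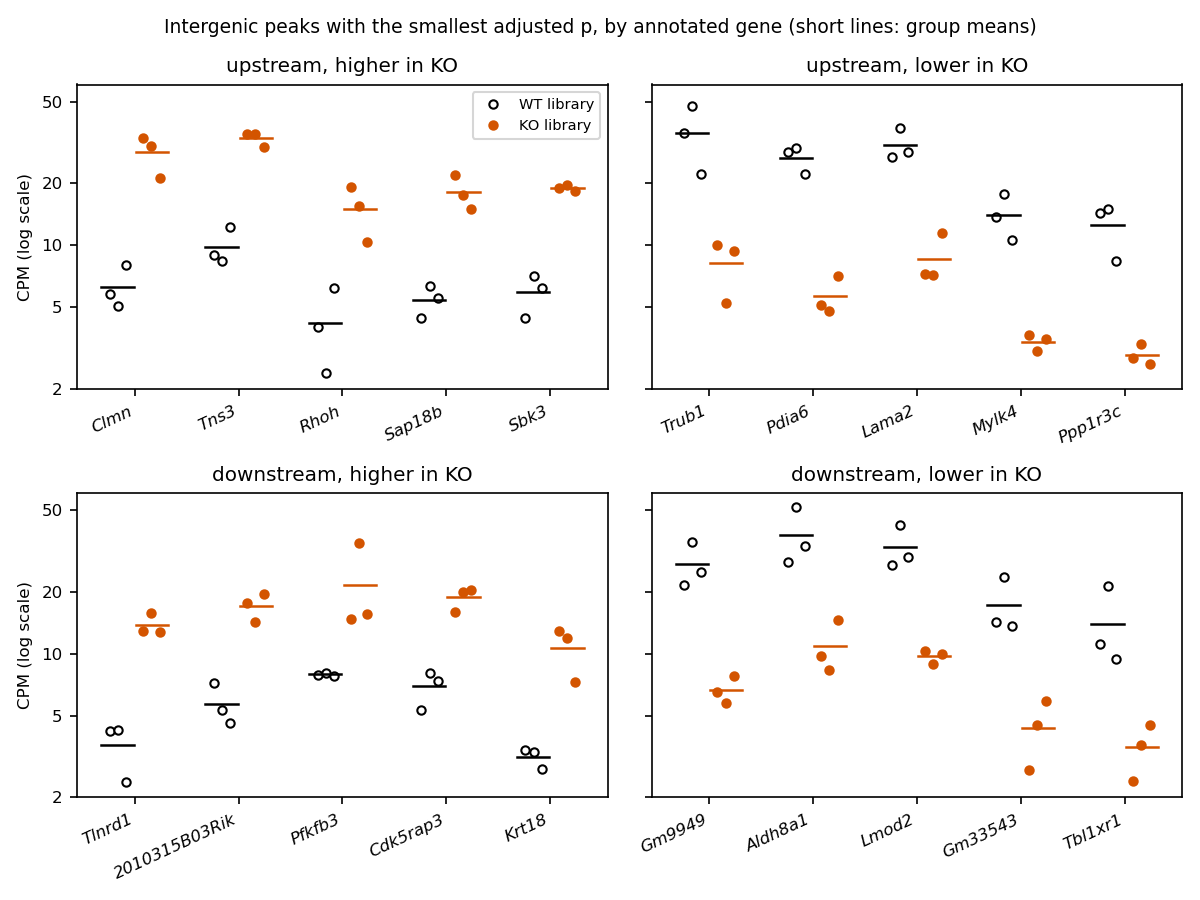
TMM-scaled CPM (log axis) of the 20 named intergenic peaks in each WT library (open circles) and KO library (filled circles), in replicate order within a group, with short lines at the group means. The KO and WT libraries are apart in each panel, by the choice of the peaks, and KO replicate 5 stands above the other KO libraries at Pfkfb3 with 34.6 CPM.

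At genes with several called intergenic peaks, the calls mostly shared a direction. Of the 737 genes 138 had at least 2 called peaks, 50 of them with only gains, 76 with only losses and 12 with both. At 23 genes peaks were called on both sides of the gene, in 1 direction at 19 and in both directions at 4. There were 8 genes with 4 or 5 called peaks: the 6 with the smaller adjusted p, described next, had only losses, and Trim27 and Wsb1 only gains.

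At Pdia6, 5 of 6 peaks over 41645 bases of upstream sequence fell, with log2 fold changes from -2.24 to -0.94. Next to the peak given above, one 24836 bases upstream (chr12:17241158-17242260) had 16.1, 23.6 and 17.5 CPM in WT and 7.32, 7.40 and 5.86 CPM in KO (-1.48, SE 0.22, adjusted p = 1.43e-08). The peak nearest the gene, 9368 bases upstream, gave -0.46 and was not called. Of these 5 losses 4 passed without KO replicate 5 and 3 with the authors' library factors.

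Vldlr encodes the very low density lipoprotein receptor, which takes up triglyceride-rich particles in muscle and fat. Around it, 5 of 8 peaks fell, all 5 between 29245 and 48825 bases from the start. All 8 overlap the RefSeq gene Gm35438. The largest change was 41025 bases upstream (chr19:27175682-27176308), from 11.1, 16.3 and 10.3 CPM in WT to 4.39, 3.21 and 4.03 CPM in KO (-1.71, SE 0.26, adjusted p = 1.06e-08). A peak in the same stretch at 33292 bases gave 0.06, and those nearer the gene gave -0.11 at 5745 bases upstream and 0.17 at 21785 bases downstream, none called. Of the 5, 4 passed without WT replicate 4 or with the authors' library factors.

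Ppp1r3c had 4 losses among 8 peaks, 3 of them upstream. Its strongest intergenic peak, 12646 bases upstream (chr19:36748356-36750242), had 30.5, 55.9 and 30.8 CPM in WT and 14.0, 13.5 and 15.2 CPM in KO (-1.46, SE 0.20, adjusted p = 7.04e-11), and at 21761 bases upstream the change was -1.16 (SE 0.22, adjusted p = 2.06e-05). A downstream peak at 42959 bases gave -0.71 (SE 0.21, adjusted p = 0.0141). This call was lost when WT replicate 3 or 4 or KO replicate 4, 5 or 7 was left out (adjusted p from 0.0574 to 0.202), and 3 losses were then called. With the authors' library factors 2 losses were called, since this peak (adjusted p = 0.476) and the one at 21761 bases (adjusted p = 0.0608) were lost.

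Myl1 encodes an alkali light chain of fast myosin. Of its 5 peaks 4 fell, 3 upstream and 1 downstream. The peak 19522 bases upstream (chr1:66964493-66965319) had 13.9, 14.4 and 11.3 CPM in WT and 7.74, 3.21 and 5.03 CPM in KO (-1.33, SE 0.24, adjusted p = 6.48e-06), and the downstream one at 12851 bases (chr1:66921420-66923543) fell by 0.96 (SE 0.23, adjusted p = 0.00128). At 12321 and 40139 bases upstream the log2 fold changes were -0.81 and -0.63. Only 2 losses were called without WT replicate 4 or KO replicate 7, and 1 with the authors' library factors. The call at 40139 bases held in 3 of 12 alternatives and was lost with DESeq2's test and with limma-voom. Aff1, which encodes a subunit of transcription elongation complexes, had 4 losses of 7, from -1.24 to -0.72, and all 7 peaks lie inside the RefSeq span of Aff1. At Aff1 1 loss was called when WT replicate 4 was left out or with the authors' library factors, and 2 when KO replicate 5 or 7 was left out. Fam124b had 4 losses of 5, the largest at 13344 bases upstream (chr1:80227137-80227438), from 2.06, 7.36 and 6.06 to 0.836, 1.15 and 0.915 CPM (-2.39, SE 0.43, adjusted p = 4.33e-06). At Fam124b 1 loss was called without WT replicate 4 and 2 with the authors' library factors.

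**Figure D3:**
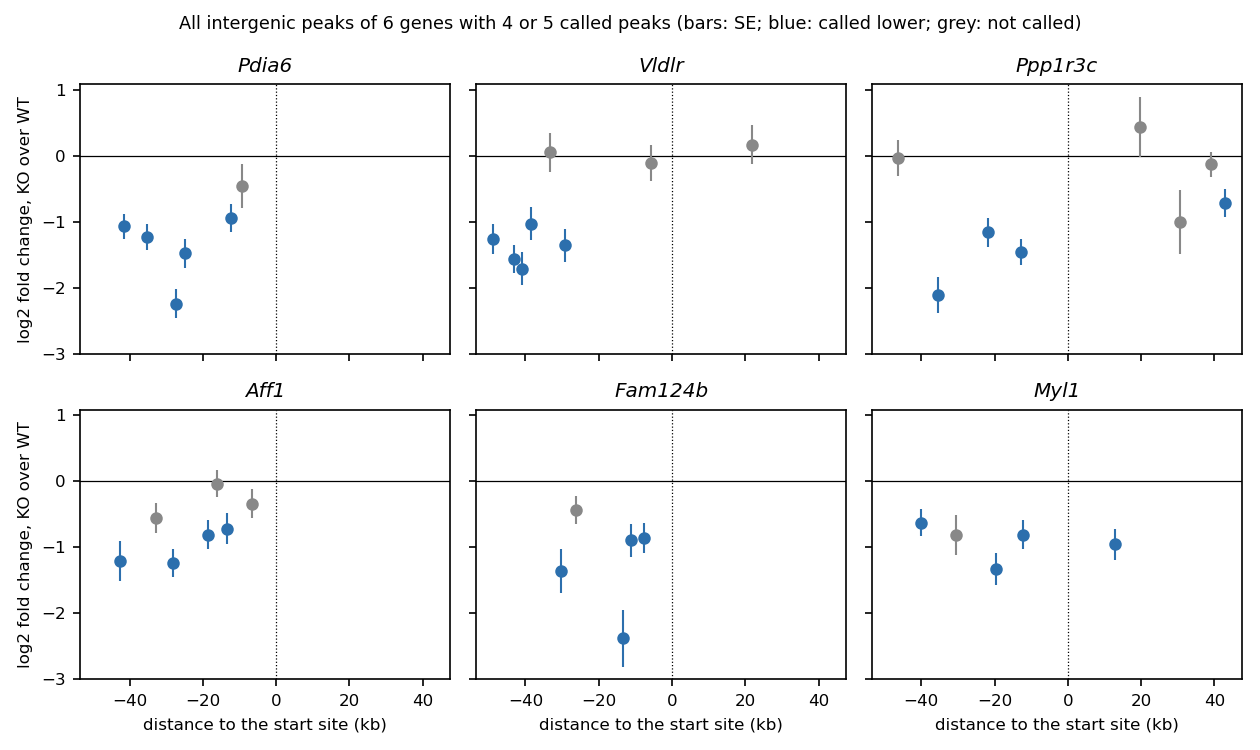
Log2 fold change of KO over WT (points, with SE bars) for every tested intergenic peak of 6 genes with 4 or 5 called peaks, by distance in kb from the start site (negative is upstream); blue marks peaks called lower and grey marks peaks not called. At Pdia6, 5 of 6 peaks lie between -2.24 and -0.94, and at Vldlr the called peaks lie beyond 29245 bases while the nearer ones are close to 0.

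Calls among intergenic peaks next to muscle genes and next to genes of other cell types were counted by list, with no test of a difference and no matching of signal. The lists were chosen with earlier results of these data known. Upstream, 0.626% of peaks below 2 CPM and 13.7% of those above 8 CPM were called. In WT, the 39 fast fibre peaks summed to 676 to 994 CPM and the 48 of the atrophy and FoxO list to 797 to 1005 CPM. The 31 fibro-adipogenic peaks summed to 245 to 294 CPM and the 9 adipocyte peaks to 48.5 to 63.1 CPM. Over 10 muscle lists together, 18 of 338 peaks rose and 34 fell (15.4% called, beside 7.43% of all intergenic and 7.01% of all peaks). Over 7 lists of endothelial, smooth muscle and pericyte, fibro-adipogenic, tenocyte, immune, Schwann cell and adipocyte genes, 2 of 89 rose and 0 fell (2.25%). For these 7 lists, leaving out KO replicate 7 gave 4 gains and 0 losses of 91, 1 each in the endothelial, smooth muscle, Schwann cell and adipocyte lists. Leaving out KO replicate 4, KO replicate 5 or WT replicate 3 gave 0 calls, and so did the authors' library factors. Leaving out WT replicate 4, the muscle counts were 22 higher and 16 lower, without KO replicate 4 they were 8 and 25, without KO replicate 5 they were 11 and 19, without KO replicate 7 they were 22 and 21 and without WT replicate 3 they were 11 and 29. With the authors' library factors they were 16 and 10.

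In the fast fibre list, which holds contractile and metabolic genes of fast fibres, 9 of 39 peaks fell and 4 rose (median log2 fold change -0.18). Losses lay at Mylk4, Myh4, Myl1 and Tpm1. Myh4 is the gene of myosin heavy chain type IIB, found in the fastest fibres. Its peak 11079 bases upstream (chr11:67226274-67227626), over the antisense gene Myhas, had 13.3, 25.5 and 15.0 CPM in WT and 7.63, 6.001 and 7.51 CPM in KO (-1.36, SE 0.22, adjusted p = 3.55e-07). The second Mylk4 peak, 8182 bases upstream (chr13:32789436-32790359), fell from 15.6, 18.7 and 12.4 to 5.96, 5.51 and 3.57 CPM (-1.64, SE 0.24, adjusted p = 2.92e-09). Gains at Ldha, Pvalb and Tpm1 were 0.88, 0.88 and 0.73. Without KO replicate 4 no gain of this list was called, without KO replicate 5, WT replicate 3 or WT replicate 8 1 was, and without WT replicate 4 or KO replicate 7 6 losses were; 4 losses were called with the authors' library factors.

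In the slow fibre list 4 of 26 peaks fell and 1 rose, while the median was above 0 (0.23). The gain was at Myl2, which encodes the regulatory light chain of slow and cardiac myosin, in the peak whose sequence is shown above (7825 bases upstream, chr5:122092594-122093657). It had 5.14, 5.43 and 8.29 CPM in WT and 19.97, 12.8 and 9.25 CPM in KO (1.17, SE 0.24, adjusted p = 7.57e-05). KO replicate 4 was far above the other KO libraries, and without it the call was lost (adjusted p = 0.0604, the highest of the 12 alternatives). The losses were 3 at Sln, which encodes the calcium pump inhibitor sarcolipin, and 1 at Mb, the myoglobin gene. The Sln peak 23340 bases downstream fell by 1.16 (SE 0.31, adjusted p = 0.00627). No loss of this list was called without WT replicate 4 or KO replicate 7; without KO replicate 5 1 was, without KO replicate 4 2 were, and with the authors' library factors none was.

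In the sarcomere list 6 of 33 peaks fell and 3 rose (median -0.17). Losses lay at Lmod2, Neb, Myot, Lmod3 and Ttn, and the second one at Lmod2 was -1.15 at 10280 bases downstream (SE 0.19, adjusted p = 3.60e-07). The nebulin gene Neb fell 11886 bases upstream (chr2:52389607-52391113) from 17.1, 26.6 and 16.3 to 10.04, 8.80 and 7.87 CPM (-1.18, SE 0.22, adjusted p = 6.52e-06). Nebulin spans the thin filament of skeletal muscle, and the losses at the Z disc gene Myot, at Lmod3 and at the titin gene Ttn were -0.93, -0.80 and -0.73. Gains lay at Cap2, which encodes an actin-cyclase-associated protein, at the cardiac actin gene Actc1 and at the Z disc gene Actn2, with 1.10, 0.97 and 1.005. Leaving out WT replicate 4, KO replicate 5 or KO replicate 7 left 4 losses, and the authors' library factors 2. The summed signal of the list's intergenic peaks did not overlap between the groups (329 to 437 CPM in WT, 269 to 318 in KO). That of its promoters did (1400 to 2127 CPM in WT, 1562 to 1654 in KO).

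In the triad and calcium list 3 of 24 peaks fell and 1 rose (median -0.09). Jph1 encodes junctophilin 1, which joins the sarcoplasmic reticulum to the T tubule. Its peak 8253 bases upstream (chr1:17105633-17106650) had 10.7, 14.1 and 7.77 CPM in WT and 3.24, 3.86 and 3.30 CPM in KO (-1.65, SE 0.27, adjusted p = 1.76e-07). The other losses were at Jph1 (-0.66) and at Asph (-1.004), and the gain was at Cacng1 (0.83). Without KO replicate 5 or with the authors' library factors, 1 loss was called, and without WT replicate 4 or KO replicate 7 2 were. The gain was lost without KO replicate 4, KO replicate 5 or WT replicate 3, and with DESeq2's test.

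In the myogenic and MEF2 list 6 of 58 peaks fell and 1 rose (median -0.13). The smallest adjusted p was 29983 bases upstream of Mef2a (chr7:67402129-67403552), where 17.3, 21.2 and 20.1 CPM in WT stood against 6.80, 8.06 and 7.87 CPM in KO (-1.36, SE 0.22, adjusted p = 1.75e-07). The 3 WT values were close together there, and the call held under each of 12 alternatives. The other losses were 2 downstream of Mstn, the gene of the muscle growth inhibitor myostatin (-1.04 and -0.89), 2 upstream of Myf6 (-0.96 and -0.70) and 1 upstream of Myod1 (-0.73), and the gain was at Mef2d (1.09). With WT replicate 4 left out or with the authors' library factors, 1 loss was called, and leaving out KO replicate 4, 5 or 7 left 2, 3 or 4 losses. The gain was lost without KO replicate 4, KO replicate 5, WT replicate 3 or WT replicate 8.

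In the glycolysis and glycogen list 5 of 27 peaks fell and 6 rose (median -0.05). The gains were 3 at Ldhb and 1 each at Slc2a4, Ldha and Pfkfb3, the last described above. Slc2a4 encodes GLUT4, the insulin-regulated glucose transporter of muscle and fat. Its peak 7934 bases upstream (chr11:69955791-69956453) had 3.19, 5.98 and 3.82 CPM in WT and 15.8, 17.5 and 10.9 CPM in KO (1.75, SE 0.25, adjusted p = 8.76e-10). Ldhb encodes the lactate dehydrogenase subunit of oxidative tissue. Its peaks rose on both sides of the gene, by 1.997 at 9806 bases downstream (SE 0.40, adjusted p = 5.40e-05), 1.07 at 7614 bases downstream and 1.29 at 13816 bases upstream. The first of these held 0.412, 1.84 and 1.71 CPM in WT and 7.95, 3.53 and 4.49 CPM in KO. Of the losses, 4 were those at Ppp1r3c. Without KO replicate 5 or WT replicate 4 3 losses of the list were called, without KO replicate 4 or WT replicate 3 4 gains were, and with the authors' library factors 2 losses were.

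The remaining muscle lists had few calls. In the oxidative and lipid list 1 of 25 rose, at Ppargc1a (0.70, SE 0.22, adjusted p = 0.0220), and 1 fell, at Pdk4 (-0.72, SE 0.18, adjusted p = 0.00309). Ppargc1a encodes the coactivator of mitochondrial genes PGC-1alpha, and Pdk4 a kinase that restrains pyruvate oxidation. The Ppargc1a call was lost without KO replicate 4, KO replicate 5 or WT replicate 3 (adjusted p = 0.122, 0.0811 and 0.104) and the Pdk4 call without KO replicate 5 or WT replicate 4 (0.0829 and 0.0968), where the alternatives reached 0.122 and 0.493. Both calls were also lost with the authors' library factors. In the mechanotransduction list 1 of 45 rose, 44091 bases upstream of Vcl, the vinculin gene (0.99, SE 0.27, adjusted p = 0.00584), lost without KO replicate 4 (0.0861). In the neuromuscular junction list 1 of 17 rose, 5463 bases upstream of the acetylcholine receptor gene Chrna1 (0.64, SE 0.20, adjusted p = 0.0271). This call was lost without KO replicate 5 or WT replicate 4 (0.300 and 0.0825) and with the authors' library factors. The list's median was 0.25, and 0.01 without WT replicate 4. The summed signal of its intergenic peaks did not overlap between the groups (82.8 to 96.4 CPM in WT, 105 to 115 in KO). Nor did that of its promoters (386 to 460 CPM in WT, 464 to 517 in KO), and neither difference was tested. In the atrophy and FoxO list 0 of 48 were called by edgeR in the main fit, where 7 had an unadjusted p below 0.05. DESeq2 called 1 gain and limma-voom 0. In edgeR, DESeq2's size factors or no filter gave 1 gain. Total counts gave 2, and so did leaving out KO replicate 7, WT replicate 4 or WT replicate 8. Leaving out KO replicate 4, KO replicate 5 or WT replicate 3 gave 0 calls, and so did the authors' library factors.

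Among genes of other cell types, 0 of 18 endothelial, 0 of 11 smooth muscle and pericyte, 0 of 31 fibro-adipogenic, 0 of 9 tenocyte, 0 of 2 macrophage and immune and 0 of 9 Schwann cell peaks were called by edgeR, DESeq2 or limma-voom. Over all 7 lists, 7 of the 89 peaks had an unadjusted edgeR p below 0.05. The 2 calls were gains upstream of Cidea, a lipid droplet gene of adipocytes, at 7431 bases (0.61) and 15742 bases (0.67), and both were lost without KO replicate 4, KO replicate 5 or WT replicate 3. Both were also lost with the authors' library factors, and the one at 15742 bases without KO replicate 7. The summed promoter signal of the lists had overlapping ranges in both groups for endothelial genes (71.5 to 104 CPM in WT, 78.0 to 109 in KO), fibro-adipogenic genes (149 to 209 and 164 to 213) and adipocyte genes (194 to 257 and 224 to 234), and ranges that did not overlap for macrophage and immune genes (52.4 to 57.7 in WT, 46.9 to 51.0 in KO, 4 promoters). The summed signal of the lists' intergenic peaks did not overlap for adipocyte genes (48.5 to 63.1 CPM in WT, 65.7 to 68.9 in KO) and macrophage and immune genes (12.4 to 15.8 in WT, 10.03 to 11.4 in KO), and overlapped for the other 5 lists. In the adipocyte list the median log2 fold change was -0.15, below 0. Its 2 Cidea peaks had means of 17.9 and 9.78 CPM in WT and 27.2 and 15.5 CPM in KO. The part of these cells in the results was not tested.

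**Figure D4:**
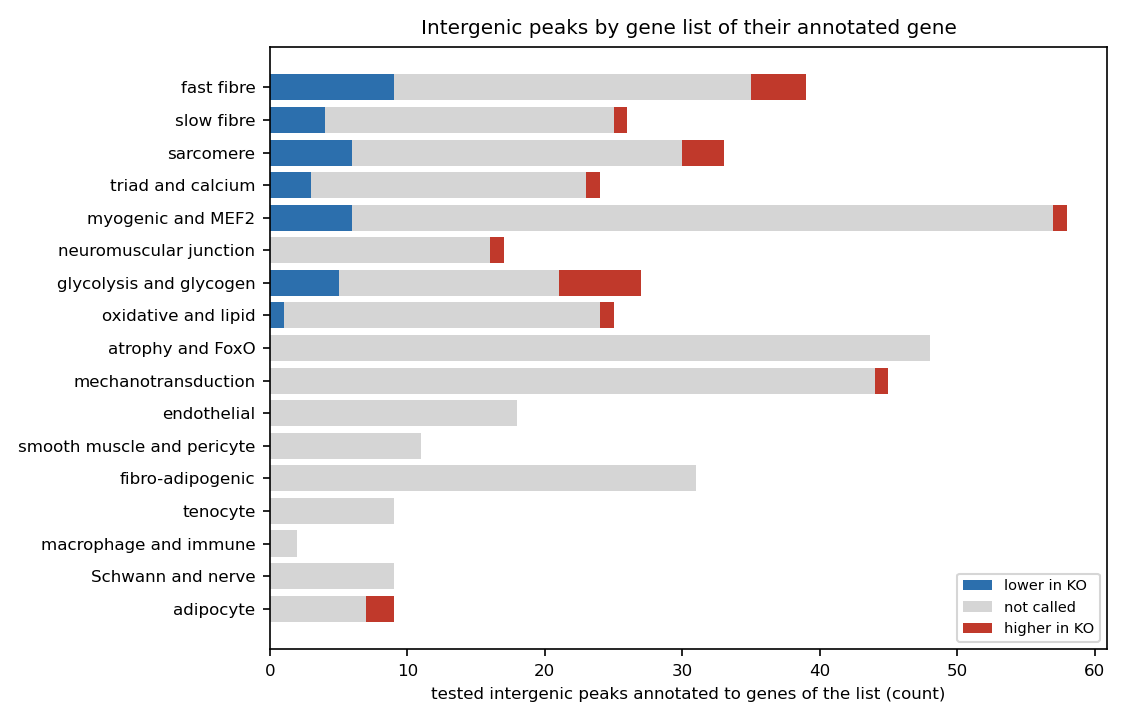
Number of tested intergenic peaks annotated to genes of each list, divided into called lower in KO (blue), not called (grey) and called higher in KO (red). The 7 lists of other cell types hold 2 calls, both at the adipocyte gene Cidea, and the fast fibre list holds the most losses, 9 of 39.

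Promoters moved with called intergenic peaks of the same gene more often in the same than in the opposite direction. Of 372 peaks that rose and whose gene had a tested promoter peak, the promoter rose for 19 and fell for 1, and its log2 fold change was above 0 for 78.8% (median 0.16). Of 388 peaks that fell, the promoter rose for 1 and fell for 37, and was above 0 for 31.96% (median -0.09). For the 9164 peaks not called, the promoter rose for 113 and fell for 79, and 64.1% were above 0 (median 0.07). Both sides gave like values, with 79.4% above 0 for upstream and 76.9% for downstream gains, and 31.4% and 33.3% for losses. Promoter and intergenic values come from the same libraries, so a library that stands apart moves both, and peaks of 1 gene share its promoter. When WT replicate 4 was left out, 182 lower peaks with a tested promoter were called, with 3 promoters higher and 11 lower, and 38.5% above 0. With the authors' library factors, 94.3% of promoters were above 0 for gains and 63.2% for losses, beside 87.4% for peaks not called.

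Among the pairs in 1 direction, Ldhb rose at its promoter by 0.92 (adjusted p = 2.56e-04) with 3 intergenic gains. Losses in both places were seen at Myl1 (promoter -0.82, adjusted p = 0.00113), Myh4 (-1.08, adjusted p = 3.95e-07), Mstn (-1.20, adjusted p = 2.27e-07), Myf6 (-0.95, adjusted p = 2.01e-05), Tbl1xr1 (-0.80, adjusted p = 0.00815) and Lmod3 (-0.65, adjusted p = 0.0194), the last a leiomodin gene of skeletal muscle. Cep85l fell at its promoter by 0.82 with 3 upstream losses, and Kcnf1, a potassium channel subunit gene, fell by 1.34 with 1 at 43817 bases. The 2 exceptions were Map3k7cl, where a peak 16830 bases upstream rose by 0.83 and the promoter fell by 0.86, and Tln2, the talin 2 gene, where a peak 4087 bases upstream fell by 1.05 and the promoter rose by 1.56.

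**Figure D5:**
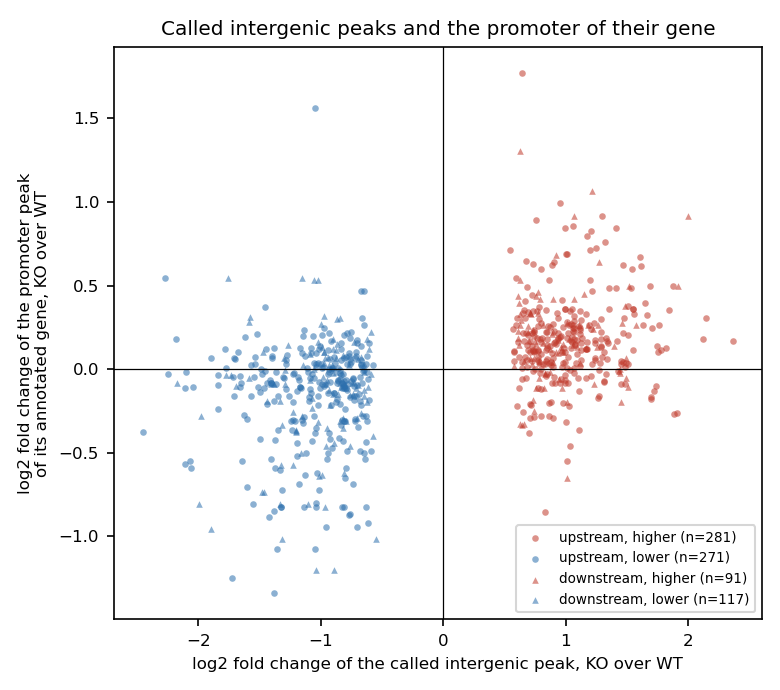
Log2 fold change of the promoter peak of the annotated gene (y axis) against that of each called intergenic peak (x axis), circles upstream and triangles downstream, red higher and blue lower in KO; no point lies near x = 0, since only called peaks are drawn. Of the gains 78.8% and of the losses 31.96% lie above 0 on the y axis.

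Part of the class labelled Intergenic lies over RefSeq genes. Of the 12531 peaks 3189 (25.4%) overlap a RefSeq gene span, and of the tested ones among them 141 of 3157 rose (4.47%) and 118 fell (3.74%), against 305 (3.32%) and 353 (3.85%) of the 9178 outside every span. The peak over the start of 2310065F04Rik (chr11:67119454-67121406, annotated 42130 bases downstream of Myh3) was among the strongest called, with 64.8, 91.1 and 55.8 CPM in WT and 35.8, 37.2 and 35.7 CPM in KO (-0.96, SE 0.18, adjusted p = 9.60e-06). The KO libraries were nearly equal there, and the call was lost only with the authors' library factors (adjusted p = 0.200, the highest of the 12 alternatives). The peak over the start of Gm36665 (chr5:32120576-32122387), annotated to Fosl2, an AP-1 subunit gene, fell from 36.3, 47.4 and 30.1 to 11.4, 14.5 and 15.5 CPM (-1.46, SE 0.20, adjusted p = 8.75e-11). Over the start of Gm28867 (chr1:118358941-118360121), annotated to Clasp1, a microtubule plus-end protein gene, values rose from 6.28, 7.36 and 8.42 to 17.1, 18.2 and 18.0 CPM (1.28, SE 0.23, adjusted p = 2.08e-06). The peak over Gm4544 (chr15:102656110-102658512), annotated to the ATP synthase gene Atp5g2, fell from 30.3, 37.5 and 24.6 to 21.1, 15.9 and 18.9 CPM (-0.73, SE 0.19, adjusted p = 0.00478). It was not called without WT replicate 4 or KO replicate 5, or with the authors' library factors.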

How the data were processed

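ATAC-seq libraries of mouse quadriceps femoris, 3 Prr14-KO and 3 Prr14-WT, were compared. GRCm38 is the build, and Trimmomatic, BWA, MACS2, bedtools, deepTools and DESeq2 1.6.3 are the tools, per the submitters' processing notes; what each tool did, whether reads were shifted, and the treatment of duplicates and of overlapping peaks: not given in the sources used here. In one table, the authors deposited 1 common peak list with whole-number counts per peak and library, a normalized signal (the count divided by 1 factor per library), their log2 fold change, their p-values, a score per peak, the annotated gene, the feature class and the distance to the start site.

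The deposited counts of all 75134 peaks were tested together with edgeR 4.0.16 (R 4.3.3), using TMM factors, the two-sided quasi-likelihood test and filterByExpr (minimum count 10 and minimum total 15), with Benjamini-Hochberg adjustment over 73896 tested peaks and a threshold of 0.05. An adjusted p with no tool beside it is edgeR's. The procedure was tested on simulated data. Alternatives were DESeq2 1.42.0 (test, and its size factors in edgeR), limma-voom (limma 3.58.1), the authors' factors, total counts, no filter, each library left out, other limits of distance, width and signal, and, chosen after seeing the data, the authors' deposited table and peaks outside RefSeq spans. The promoter peak of a gene is its nearest tested peak of a promoter class.

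Named peaks are, for each side and direction, the 5 with the smallest adjusted p whose libraries do not overlap, at most 1 per gene; the 6 genes with the most called peaks; and up to 3 called peaks per list with the smallest adjusted p. Other list members are named to account for a count, and some are not reported here. The peaks, the gene lists and these rules were chosen with earlier results of these data known. RefSeq names, spans and start windows (250 bases before to 50 after a start) are of GRCm38.p6. Sequences of other peaks are not shown.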

Additional observations from a re-analysis of the deposited data

How the results depend on the processing

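No paired analysis was made, since the labels name no pairs of WT and KO samples and the groups share only replicate number 4. Of 91 named peaks 42 kept their call and direction under 12 of 12 alternative fits, 49 lost the call in at least 1, and 0 reversed. With the authors' library factors in edgeR the lower counts were 96 upstream and 35 downstream and the medians 0.17 and 0.18, beside 0.19 over all peaks, so relative to all peaks the medians stayed near 0. In the authors' deposited table the lower counts were 77 and 27 and the medians 0.18 and 0.19. Leaving out 1 library each gave 167 to 356 higher and 145 to 313 lower upstream, 54 to 129 higher and 74 to 148 lower downstream, medians of -0.0386 to 0.0581 upstream and -0.0462 to 0.0627 downstream, and a difference in the log2 ratio of upstream to downstream signal of -0.00111 to 0.0169. The lower counts were smallest without WT replicate 4 upstream (145) and without KO replicate 5 downstream (74), and the higher counts without KO replicate 5 on both sides. With a distance limit of 20000 bases 210 upstream peaks rose and 161 fell, and 57 and 60 downstream; with a width limit of 1000 bases these were 209, 163, 56 and 70; both leave fewer peaks to count. Outside every RefSeq span 219 upstream peaks rose. The other alternatives kept the 4 counts within 1.5 times and the medians within the spread between libraries. Peaks below 2 CPM gave 7 calls of 1119 upstream and 2 of 456 downstream, so changes there were mostly not detectable at this depth.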

Other observations

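Intergenic peaks over tRNA genes are a class chosen after its values were seen. Of 79 tested, 11 (13.9%) rose and 0 fell (median log2 fold change 0.27), where 3.62% of all intergenic and 2.77% of all peaks rose. Their median signal was 20.4 CPM, against 5.29 CPM for all tested intergenic peaks. Calls are more frequent at high signal: above 8 CPM, 6.55% of upstream and 5.55% of downstream intergenic peaks rose. Of the 11, 10 lie on chromosome 13, annotated to Zfp184, Trim27, Btn2a2, Abt1 and H2bc11, and the remaining one is annotated to Fcgr3. The other 64 tested peaks over tRNA genes had 3 gains and 0 losses (median 0.10). The summed signal over the 79 peaks was 1761, 2073 and 1720 CPM in WT replicates 3, 4 and 8 and 2110, 2096 and 2191 CPM in KO replicates 4, 5 and 7, so the groups do not overlap, with WT replicate 4 close to the KO libraries. Between 2 and 12 peaks rose and 0 fell under the alternatives and in the authors' deposited table, with 2 without KO replicate 4 and 7 without WT replicate 3. The median was 0.48 with the authors' library factors, which moved the median of all peaks to 0.19. tRNA genes are near-identical copies that can share reads, so values of single peaks are uncertain.

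At Trim27, whose intergenic peaks lie in that cluster, 4 of 5 rose, with log2 fold changes from 0.59 to 1.26. The peak 44361 bases downstream (chr13:21233827-21234605) had 4.12, 6.26 and 5.92 CPM in WT and 15.0, 10.5 and 9.80 CPM in KO (1.11, SE 0.25, adjusted p = 4.42e-04 by edgeR). Without KO replicate 4 or KO replicate 5, 1 of them was called, and without WT replicates 3, 4 or 8, 2 were. At Wsb1, a ubiquitin ligase subunit gene, 4 of 7 peaks rose, on both sides of the gene, by 0.65 to 0.77. The strongest, 18436 bases downstream (chr11:79229161-79231284), had 28.2, 31.2 and 26.7 CPM in WT and 49.2, 53.8 and 37.6 CPM in KO (0.71, SE 0.18, adjusted p = 0.00387 by edgeR). Without KO replicate 5 or with the authors' library factors 0 of the 4 were called, without WT replicate 3 1 was and without KO replicate 4 2 were; 3 of the 7 were higher by the authors' deposited table. Both genes were chosen after their values were seen.

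By chromosome, 1.85% to 6.14% of intergenic peaks rose and 2.10% to 6.82% fell, beside 2.77% and 4.23% over all peaks, a description with no test. The 4 chromosomes given next were chosen after their values were seen, as those with the lowest and the highest shares of gains among their calls. On chromosome 3, 12 of 648 peaks rose (1.85%) and 39 fell (6.02%), and on chromosome 10, 12 of 572 rose (2.10%) and 39 fell (6.82%). On chromosome 11, 47 of 1033 rose (4.55%) and 26 fell (2.52%), and on chromosome 13, 32 of 521 rose (6.14%) and 16 fell (3.07%), with 10 of these gains over tRNA genes. Some of the other chromosomes also lay away from the shares over all peaks, such as chromosome 2 (3.56% and 2.10%) and chromosome 16 (3.51% and 2.16%). Chromosome 6 lay nearer to them (3.33% and 3.91%).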
